A study of Litchi chinensis with 30 samples.

Results

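The genes described here encode actin, tubulin and the proteins that bind actin in flowers of litchi (Litchi chinensis, cultivar 'Feizixiao'). They were chosen by name alone: every gene whose best Swiss-Prot match starts with Actin, Tubulin, Profilin, Villin, Formin, Fimbrin or Myosin. This gave 160 of the 37234 genes in the deposited table, at 129 loci. By name, 10 were actins, 26 actin-related proteins, 7 actin-depolymerizing factors (ADFs) and 3 other actin-associated entries. There were 10 alpha tubulins, 13 beta tubulins, 4 gamma tubulins and 16 tubulin-folding cofactors. The other classes were 3 profilins, 4 villins, 21 formins, 6 fimbrins and 37 myosins, and 12 of these 37 were myosin-binding proteins and not motors.

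The plant cytoskeleton is made of microtubules and actin filaments. Microtubules, built from paired alpha and beta tubulin and started at complexes that contain gamma tubulin, form the mitotic spindle and guide the laying down of cellulose in the growing wall. Actin filaments carry vesicles and organelles, with myosin as the motor. Profilin binds actin monomers, formins and the Arp2/3 complex start new filaments, ADF cuts and takes filaments apart, and villin and fimbrin tie filaments into bundles. Pollen is rich in actin and its binding proteins, because the pollen tube grows by delivering vesicles to its tip along actin cables, and flowering plants often keep separate gene copies for pollen.

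Whole flowers were sampled as functionally female (F) and functionally male (M) flowers, each at 5 stages, with 3 libraries in each of the 10 groups and 30 in all. Stages 1 to 3 (F1 to F3, M1 to M3) were small buds of increasing size, stage 4 (F4, M4) was partly open flowers and stage 5 (F5, M5) full bloom. Female flowers of this cultivar keep rudimentary stamens and male flowers a rudimentary pistil, and the trees grew in one orchard. Material was collected in triplicate from differently facing sides of the tree. Whether the 3 libraries of a group came from separate trees is not stated, and p-values therefore measure the spread between these samples, which may be in part technical. Each library held between 27433038 and 43760285 counted fragments (median 34876110).

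The names were checked against the Pfam domains listed for the same genes. All 10 actins, 7 ADFs, 3 profilins and 12 myosin-binding proteins carried the domain of their family, as did 9 of 10 alpha tubulins, 12 of 13 beta tubulins, 3 of 4 gamma tubulins, 19 of 21 formins and 3 of 4 villins. The motor domain was listed for 18 of 25 myosins and the calponin homology domain for 3 of 6 fimbrins, so several entries of these classes may be partial gene models. Of the 160 genes, 8 were gene models added by the authors, 48 were entries of a locus that has more than 1 entry in the table, and 6 had no count in any library. Reads from near-identical actin, alpha tubulin and beta tubulin copies, and from entries of 1 locus, can be split between them by the counting, so the values of single copies are less certain than those of the family.

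Levels are given in FPKM, the fragment count divided by transcript length and by the library's mapped total, which is a scale per length. Averaged over all 30 libraries, 59 of the 160 genes reached 10 FPKM and 39 stayed under 1 FPKM. The 2 most abundant were the alpha tubulins LITCHI001409.m1 and LITCHI010746.m1, which averaged 478 ± 36.00 and 299 ± 39.2 FPKM in F5 and 206 ± 28.8 and 141 ± 8.52 FPKM in M5 (SD, n = 3 each). The third was LITCHI007623.m1, a match to Arabidopsis ACTIN-7 and the LcActin that the study used to normalise its quantitative PCR, at 271 ± 22.1 FPKM in F5 and 274 ± 17.6 FPKM in M5. LcActin made up between 47.9% and 57.1% of the summed actin FPKM in every group.

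**Figure D1:**
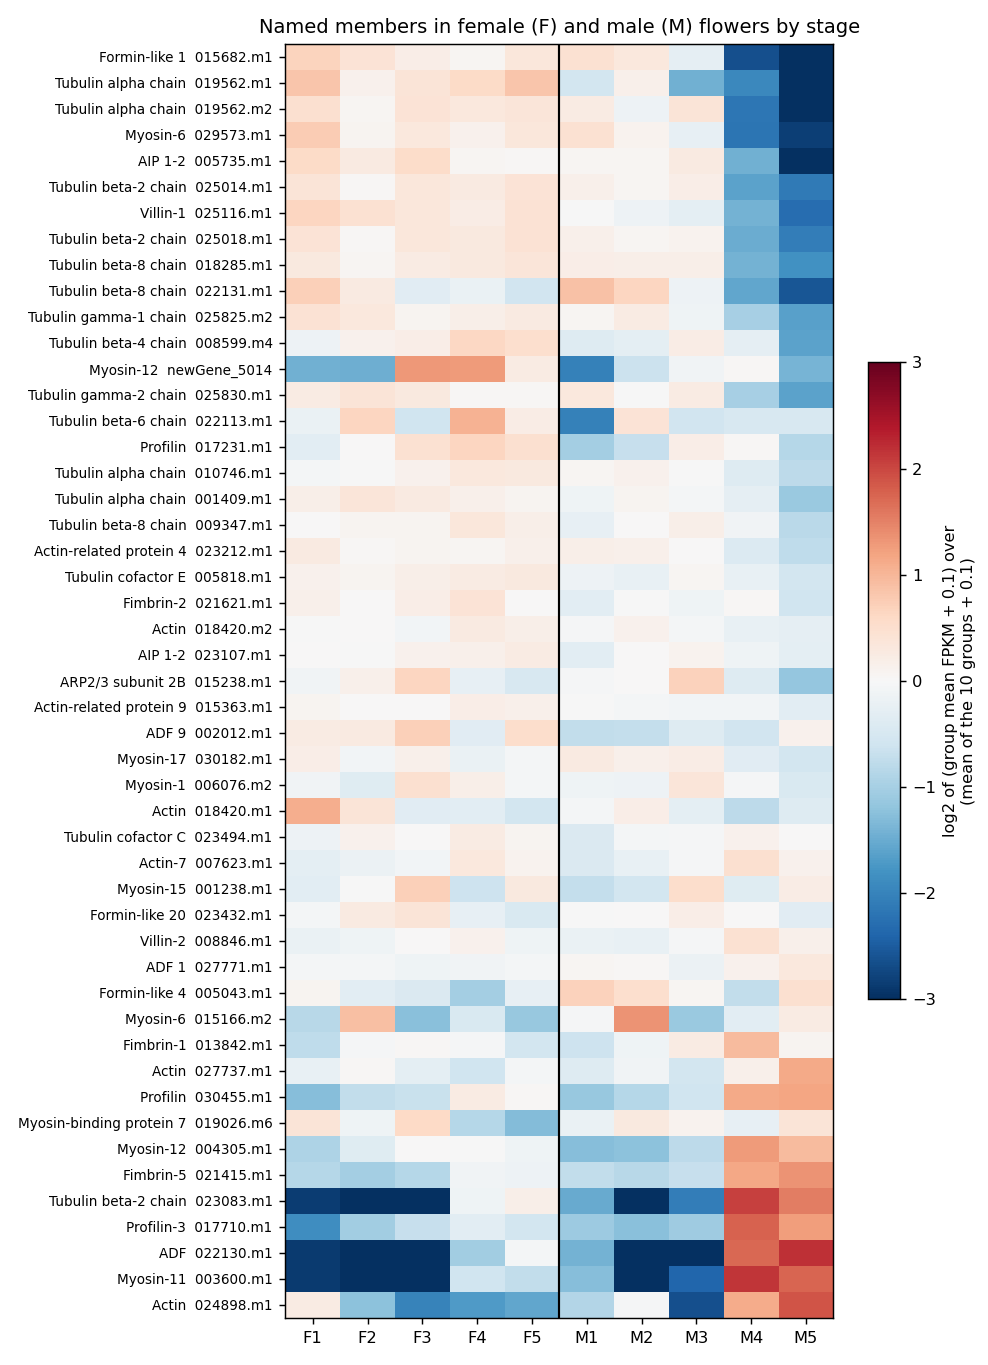
Mean level of 49 members (rows) in the 10 groups (columns, F1 to F5 and then M1 to M5), as log2 of the group mean FPKM over the mean of the 10 groups, with 0.1 FPKM added to both. The top rows are low (blue) in M4 and M5. The lowest rows are high (red) there, and 3 of them, LITCHI023083.m1, LITCHI022130.m1 and LITCHI003600.m1, are also very low in F1 to F3, M2 and M3.

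Summed over family members on the FPKM scale, actin was about even between the sexes at full bloom while tubulin was not. The actin sum was 515 ± 39.9 FPKM in F5 and 518 ± 39.6 FPKM in M5 (SD, n = 3 each). Alpha tubulin summed to 1014 ± 83.3 FPKM in F5 and 457 ± 38.8 FPKM in M5, and beta tubulin to 651 ± 112 FPKM in F5 and 288 ± 6.70 FPKM in M5. For actin this depends on the scaling, since LcActin (LITCHI007623.m1), the most abundant actin, had a log2 fold change of -0.49 at stage 5 with TMM factors, which scale libraries on the bulk of genes, and -0.02 with library size alone. The ratio of summed alpha and beta tubulin to summed actin is formed within a library and does not depend on how libraries are scaled. It was 3.77 ± 0.237, 3.73 ± 0.522, 3.72 ± 0.112, 2.95 ± 0.00605 and 3.23 ± 0.134 in female flowers of stages 1 to 5, and 3.48 ± 0.0619, 3.39 ± 0.0869, 3.34 ± 0.0905, 1.75 ± 0.131 and 1.44 ± 0.0278 in male flowers (SD, n = 3 each). The sexes did not overlap at stages 3, 4 and 5 and overlapped at stages 1 and 2. The two-sided exact permutation p was 0.1 at each of stages 3, 4 and 5 (0.167 after Benjamini-Hochberg adjustment over the 5 stages), the smallest that 3 against 3 allows, and 0.2 and 0.4 at stages 1 and 2. In whole flowers, fewer cells of a type and less RNA per cell cannot be told apart.

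**Figure D2:**
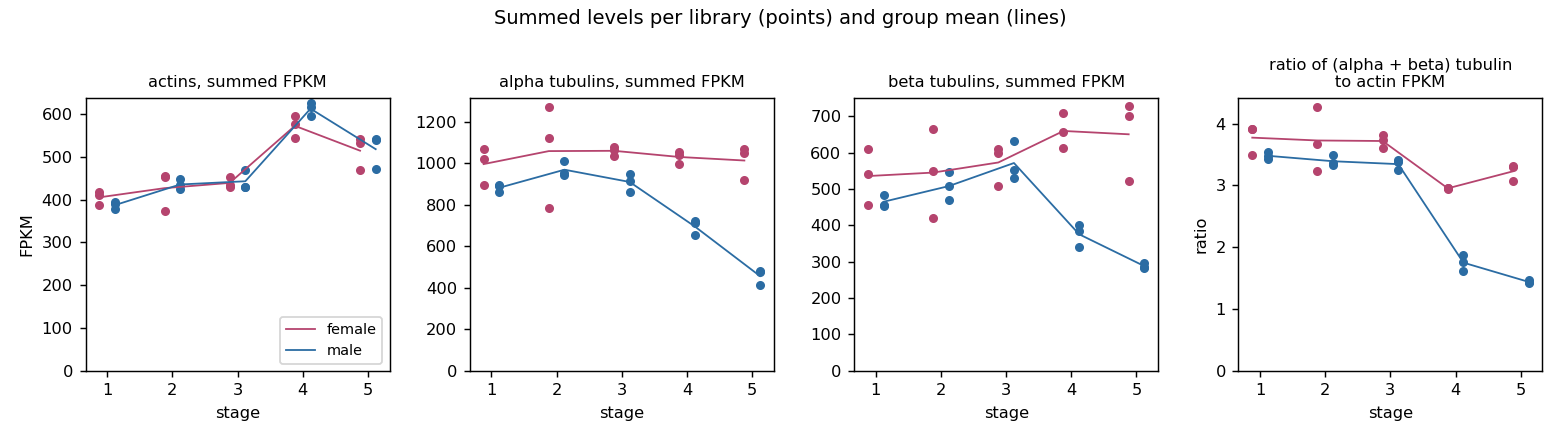
Summed FPKM of the actins, alpha tubulins and beta tubulins, and the ratio of summed tubulin to summed actin, by stage (x axis) in female and male flowers, with a point for each library and a line through group means. The tubulin sums of the sexes lie nearer at stages 1 to 3 than at stages 4 and 5. At stage 5 the ratio averaged 3.23 in female and 1.44 in male flowers.

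Each gene was tested with edgeR's quasi-likelihood test on the deposited counts, and called where its Benjamini-Hochberg adjusted p (FDR) over all 27854 tested genes was under 0.01 and its fold change at least 2. Of the 160 members, 144 passed the filter on low counts. In female against male flowers, 2 members were called at stage 1, 1 higher and 1 lower (background: 1.32% of all tested genes, 0.402% higher and 0.923% lower). None was called at stage 2 by edgeR, where the background was 0.535% (0.194% higher, 0.341% lower), although 33 members had an unadjusted p under 0.05 and DESeq2 called 3. At stage 3 the single call was lower in female flowers (background 0.761%, 0.348% higher and 0.413% lower). Stage 4 had 24 calls, 13 higher and 11 lower in female flowers (background 16.9%, 9.55% higher and 7.4% lower). Stage 5 had 43, of which 24 were higher and 19 lower (background 29.2%, 17.6% higher and 11.6% lower). The members' own shares were 16.7% at stage 4 and 29.9% at stage 5, close to the background, so the number of calls does not set these genes apart.

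The calls at stage 5 are given by class, beside a background of 17.6% higher and 11.6% lower among all tested genes. Most classes are small, and shares such as 2 of 9 alpha tubulins, 2 of 10 actins or 1 of 7 ADFs are close to that background. Higher in female flowers were 5 of 11 tested beta tubulins, 2 of 9 alpha tubulins, 2 of 4 gamma tubulins, 8 of 19 formins and 2 of 4 villins, and lower were 1 beta tubulin and 2 formins. Lower in female flowers were 8 of 34 myosin entries, 2 of 3 profilins, 2 of 6 fimbrins, 2 of 10 actins and 1 of 7 ADFs, and among these classes 1 myosin and 1 actin were higher. The actin-related proteins had 1 call each way, and the folding cofactors and the other actin-associated entries 1 higher call each. Entries of 1 locus count separately here. The 2 alpha tubulins are entries of LITCHI019562, and 4 of the 8 higher formins are entries of LITCHI016893. Of the 2 lower actins, LITCHI024898.m1 was not called with the entries of its locus summed (-0.94). The median log2 fold change was 1.62 for beta tubulins, 0.62 for alpha tubulins, 0.79 for formins, -0.68 for myosins and -1.64 for profilins, beside 0.03 for all tested genes.

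These values rest on TMM factors, which ranged between 0.77 and 1.16 and were lowest in M5. With scaling by library size alone, the median over all genes at stage 5 was 0.50 and not 0.03, the class medians shifted by about as much (beta tubulins 2.10, profilins -1.17), and 52 members were called, 39 higher and 13 lower in female flowers (background 32.8%). FPKM is not adjusted by TMM factors, so a gene whose log2 fold change is near 0 at stage 5 has a somewhat higher FPKM in female than in male flowers. Of the members, 37 were called under both scalings at stage 5 and 21 at stage 4.

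**Figure D3:**
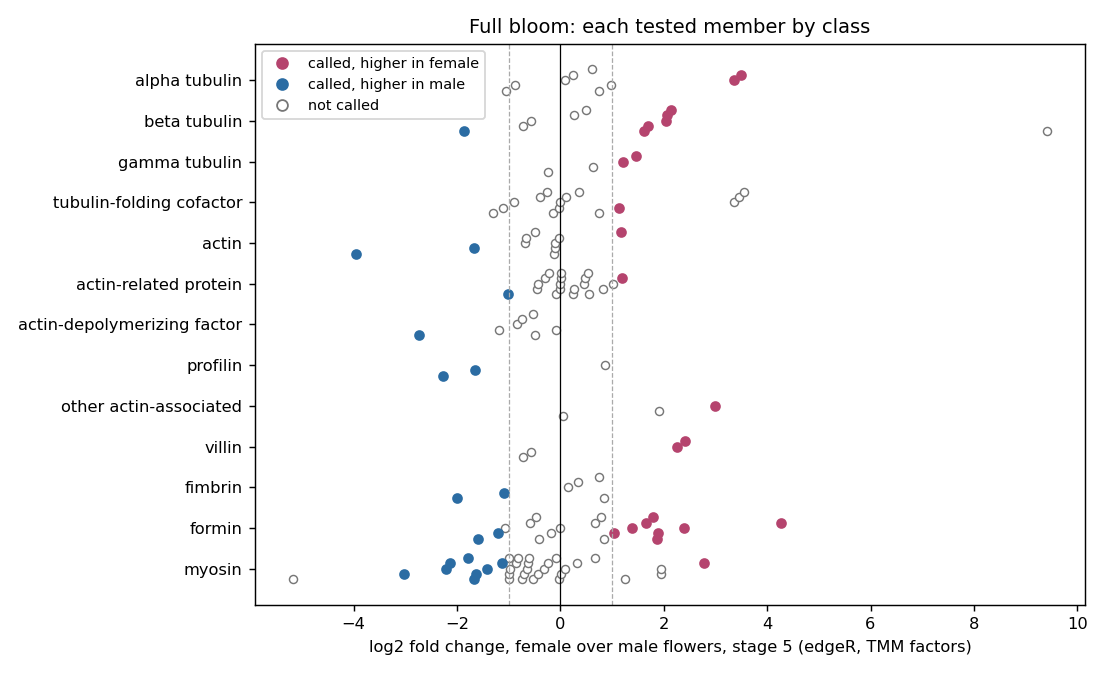
Log2 fold change of each tested member at stage 5, female over male (TMM factors), by class, with called members filled. Beta tubulins lie mostly on the female side, and profilins and ADFs mostly on the male side. The open point furthest to the right is LITCHI008599.m1, a second TUBB4 entry that was at 0 FPKM in 4 of the 6 libraries.

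Among the alpha tubulins, the clearest difference was in LITCHI019562.m2, which matches an almond alpha tubulin. It had 79.6, 73.3 and 109.7 FPKM in F5, against 6.72, 4.03 and 7.66 FPKM in M5. The groups did not overlap, and the log2 fold change was 3.35 ± 0.28 (SE, edgeR FDR 7.68e-10). At stage 4 it already stood at 84.9 ± 14.1 FPKM in female and 15.1 ± 5.18 FPKM in male flowers (log2 fold change 2.28 ± 0.27), whereas at stage 3 the means were 91.3 and 89.1 FPKM. The second entry of that locus, LITCHI019562.m1, had 15.99, 14.8 and 26.7 FPKM in F5, against 1.40, 1.12 and 1.09 FPKM in M5, a log2 fold change of 3.50 ± 0.88 (edgeR FDR 0.00154), but its M1 libraries were uneven, at 1.94, 0.603 and 19.2 FPKM.

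The most abundant alpha tubulins differed in the same direction by less. LITCHI001409.m1 had 437, 498 and 500.2 FPKM in F5, against 224, 173 and 222 FPKM in M5. LITCHI010746.m1 had 261, 339.7 and 297 FPKM in F5, against 148, 131 and 142 FPKM in M5. Neither overlapped between the sexes, and their log2 fold changes of 0.74 ± 0.12 and 0.62 ± 0.12 (edgeR FDR 1.3e-05 and 0.000131) were under the fold threshold. With library-size scaling they were 1.21 and 1.09, past the threshold.

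For the beta tubulins, several copies were lower in male flowers from stage 4 on. LITCHI018285.m1, a match to Arabidopsis TUBB8, had 114, 142 and 151 FPKM in F5, against 29.1, 30.05 and 30.5 FPKM in M5. No male library reached the female range, and the log2 fold change was 1.70 ± 0.13 (edgeR FDR 1.62e-10), after 1.503 ± 0.13 at stage 4. The neighbouring entries LITCHI025014.m1 and LITCHI025018.m1, both matched to rice TUBB2, averaged 50.99 ± 10.4 and 67.04 ± 13.7 FPKM in F5 and 8.70 ± 0.650 and 11.6 ± 0.196 FPKM in M5, with log2 fold changes of 2.07 ± 0.17 and 2.04 ± 0.17 (edgeR FDR 6.5e-10 and 3.27e-10). The most abundant beta tubulin, the TUBB4 match LITCHI008599.m4, had 112, 206 and 189.9 FPKM in F5, against 44.4, 36.2 and 37.8 FPKM in M5. Here too the sexes did not overlap (log2 fold change 1.62 ± 0.30, edgeR FDR 7.15e-05). A low member, the TUBB8 match LITCHI022131.m1, averaged 0.804 ± 0.0788 FPKM in F5 and 0.128 ± 0.0639 FPKM in M5 (log2 fold change 2.13 ± 0.39, edgeR FDR 5.68e-05).

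One beta tubulin was called in the other direction. LITCHI023083.m1, a match to TUBB2 of the grass Eleusine indica, had 3.62, 4.65 and 6.60 FPKM in F4, against 22.6, 23.3 and 22.5 FPKM in M4, and 6.69, 3.92 and 7.62 FPKM in F5, against 16.2, 11.8 and 19.7 FPKM in M5. Male libraries were above every female library at both stages. The log2 fold change was -2.42 ± 0.47 at stage 4 (edgeR FDR 0.00021) and -1.86 ± 0.46 at stage 5 (FDR 0.00139). The stage 5 call was lost without F5 replicate 2 (-1.64) and with library-size scaling (-1.39, FDR 0.0136). It was also the call at stage 3 (-2.48, FDR 0.00581), which did not hold when F3 replicate 2 or 3 or any of the 3 M3 libraries was left out (-2.66 to -2.13).

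Other beta tubulins were not called between the sexes at full bloom, although some leaned to the male side. The TUBB5 match LITCHI028653.m1 averaged 60.6 ± 5.48 FPKM in F5 and 72.4 ± 3.33 FPKM in M5. The TUBB6 match LITCHI010118.m1 averaged 49.8 ± 11.2 and 53.5 ± 2.57 FPKM, and neither was called. With TMM factors both were higher in male flowers. Their mean log2 CPM (counts scaled to a common library total) was 7.129 in F5 and 7.862 in M5 for LITCHI028653.m1, and 8.168 and 8.766 for LITCHI010118.m1. With library-size scaling these means were nearer, at 7.264 and 7.522, and 8.302 and 8.426. A second TUBB6 match, LITCHI022113.m1, was the member called as higher in female buds at stage 1, with 5.79, 4.63 and 5.32 FPKM in F1, against 1.36, 1.42 and 1.501 FPKM in M1. The groups did not overlap (log2 fold change 1.81 ± 0.30, edgeR FDR 0.000679). At stage 5 its difference was 0.26 ± 0.29, and -0.51 without F5 replicate 2.

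Of the 4 gamma tubulins, which start microtubules, 2 were higher in female flowers at stage 5. LITCHI025825.m2, the TUBG1 match, had 14.3, 13.2 and 17.5 FPKM in F5, against 5.10, 3.54 and 3.16 FPKM in M5. The sexes did not overlap (log2 fold change 1.46 ± 0.24, edgeR FDR 2e-05). The TUBG2 match LITCHI025830.m1 had 10.6, 7.15 and 11.5 FPKM in F5, against 4.44, 1.09 and 3.61 FPKM in M5, a log2 fold change of 1.21 ± 0.35 (edgeR FDR 0.00509), and this call was lost without F5 replicate 1 (1.09), F5 replicate 3 (1.12) or M5 replicate 2 (0.81). Among the folding cofactors, which assemble the tubulin dimer, 1 of 15 was called at stage 5, the cofactor D entry LITCHI025516.m6 at 5.98 ± 2.09 FPKM in F5 and 1.95 ± 0.125 FPKM in M5 (log2 fold change 1.12 ± 0.17, edgeR FDR 4.39e-06). That call was lost with the entries of its locus summed (0.58) and without F5 replicate 3 (0.86). The most abundant, the cofactor C match LITCHI023494.m1, averaged 41.1 ± 1.96 FPKM in F5 and 38.9 ± 1.26 FPKM in M5 (log2 fold change -0.40 ± 0.07, and 0.08 with library-size scaling), and was not called.

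**Figure D4:**
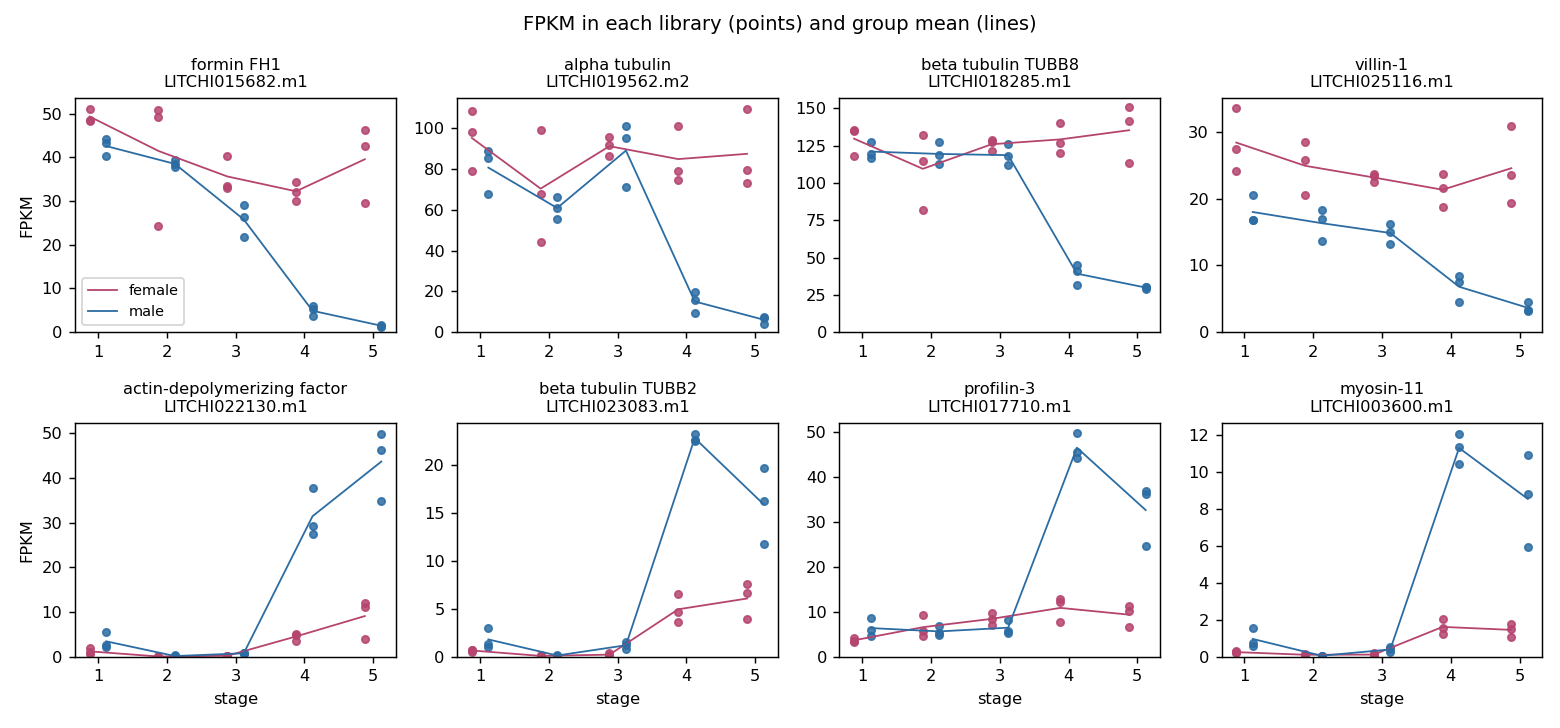
FPKM in every library of 8 members, by stage (x axis), for female and male flowers, with a line through the group means. The formin LITCHI015682.m1, the alpha tubulin LITCHI019562.m2, the beta tubulin LITCHI018285.m1 and the villin LITCHI025116.m1 are lower in male flowers at stages 4 and 5. The ADF LITCHI022130.m1, the beta tubulin LITCHI023083.m1, the profilin LITCHI017710.m1 and the myosin LITCHI003600.m1 are higher there.

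Formins, which nucleate and lengthen actin filaments, held the called member with the largest fold change at stage 5 among those of at least 1 FPKM in the higher sex. LITCHI015682.m1, a match to rice FH1, had 34.5, 32.1 and 30.1 FPKM in F4, against 5.88, 5.19 and 3.60 FPKM in M4, and 29.7, 42.7 and 46.4 FPKM in F5, against 1.74, 1.14 and 1.52 FPKM in M5. Every male library was under every female library at both stages. The log2 fold change was 2.50 ± 0.21 at stage 4 and 4.28 ± 0.23 at stage 5 (edgeR FDR 3.65e-09 and 7.81e-13), and 4.76 with library-size scaling at stage 5. The female group means for stages 1 to 5 were 49.4, 41.5, 35.7, 32.3 and 39.6 FPKM, and the male means were 42.6, 38.5, 25.8, 4.89 and 1.47 FPKM.

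Further formins with higher female levels at stage 5 were the second FH1 match LITCHI021573.m1 (11.6 ± 3.08 FPKM in F5, 2.26 ± 0.264 in M5), the FH11 match LITCHI004271.m1 (7.37 ± 1.14 and 1.68 ± 0.179 FPKM), the FH14 match LITCHI020096.m1 (10.3 ± 0.220 and 3.64 ± 0.162 FPKM) and 4 entries of the FH18 locus LITCHI016893. The call of LITCHI020096.m1 (log2 fold change 1.03) was lost with DESeq2 (0.97) and without any 1 of 6 libraries, among them F5 replicate 1 (0.97) and M5 replicate 1 (0.98), and that of LITCHI016893.m2 (1.38) without F5 replicate 2 (0.88). Lower in female flowers were the FH3 match LITCHI021199.m1, at 1.22 ± 0.286 FPKM in F5 and 2.65 ± 0.520 FPKM in M5 (log2 fold change -1.59 ± 0.25, edgeR FDR 6.54e-06), and the FH4 match LITCHI005043.m1. In Arabidopsis, FH3 builds actin cables in the pollen tube. LITCHI005043.m1 had 3.77, 1.49 and 1.94 FPKM in F5, against 3.85, 3.94 and 4.33 FPKM in M5 (log2 fold change -1.21 ± 0.32, edgeR FDR 0.00245). The groups were separated by a narrow margin, and that call was lost without F5 replicate 2 (-0.96) or F5 replicate 3 (-1.04) and with library-size scaling (-0.75). The second most abundant formin entry after LITCHI015682.m1, the FH20 match LITCHI023432.m1, was not called, at 13.2 ± 1.74 FPKM in F5 and 14.3 ± 1.82 FPKM in M5.

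The bundling proteins split. Villin-1, which in Arabidopsis bundles filaments without cutting them, was represented by the consecutive entries LITCHI025115.m1 and LITCHI025116.m1. LITCHI025116.m1 had 19.4, 23.5 and 30.9 FPKM in F5, against 3.31, 3.18 and 4.46 FPKM in M5. The sexes did not overlap (log2 fold change 2.26 ± 0.20, edgeR FDR 1.44e-09), and LITCHI025115.m1 gave 2.405 ± 0.16. The gelsolin repeat of villins was listed for LITCHI025115.m1 and not for its neighbour. The most abundant villin, the VLN2 match LITCHI008846.m1, differed little, with 55.6, 54.6 and 52.00 FPKM in F5, against 66.1, 63.2 and 64.98 FPKM in M5 (log2 fold change -0.73 ± 0.06, under the fold threshold).

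Fimbrin-5, which in Arabidopsis is needed for actin organisation in pollen, was higher in male flowers. LITCHI021415.m1 had 4.26, 3.94 and 3.74 FPKM in F5, against 12.4, 9.66 and 12.6 FPKM in M5, and the groups did not overlap (log2 fold change -2.0 ± 0.18, edgeR FDR 3.15e-09). A fimbrin-1 match, LITCHI013842.m1, had 11.3, 12.8 and 8.79 FPKM in F5, against 15.9, 16.5 and 18.4 FPKM in M5 (log2 fold change -1.09 ± 0.19, edgeR FDR 3.43e-05). That call was lost without F5 replicate 3 (-0.93) and with library-size scaling (-0.63). The fimbrin-2 match LITCHI021621.m1 averaged 8.11 ± 1.45 FPKM in F5 and 5.27 ± 0.895 FPKM in M5 and was not called.

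Actin-interacting protein 1 (AIP1) works with ADF in taking filaments apart. Of its entries, LITCHI005735.m1 had 9.64, 11.7 and 11.5 FPKM in F5, against 1.26, 0.652 and 1.08 FPKM in M5. The groups did not overlap (log2 fold change 2.98 ± 0.23, edgeR FDR 1.83e-10). The other abundant entry, LITCHI023107.m1, averaged 21.1 ± 2.66 FPKM in F5 and 14.5 ± 0.842 FPKM in M5, with a difference of 0.06 ± 0.10.

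Of the 3 profilins, 2 were higher in male flowers and 1 was not. Profilin-3 (LITCHI017710.m1, a match to a hazel profilin) had 11.2, 6.63 and 10.2 FPKM in F5, against 36.2, 24.6 and 36.9 FPKM in M5. LITCHI030455.m1, which matches the profilin already described from litchi, had 31.8, 26.8 and 28.4 FPKM in F5, against 70.5, 66.8 and 59.2 FPKM in M5. Neither overlapped between the sexes, and their log2 fold changes were -2.27 ± 0.28 and -1.64 ± 0.13 (edgeR FDR 2.34e-07 and 2.29e-10). In contrast, LITCHI017231.m1, a match to a pear profilin, had 46.4, 51.1 and 66.8 FPKM in F5, against 25.01, 19.4 and 20.4 FPKM in M5, again without overlap (log2 fold change 0.86 ± 0.15, edgeR FDR 3.16e-05, below the fold threshold, and 1.34 with library-size scaling). LITCHI017231.m1 thus supplied 58.8% of the profilin FPKM in F5 and 18.1% in M5, and LITCHI030455.m1 54.7% in M5, shares that do not depend on the scaling.

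Of the 7 ADFs, 1 was called at stages 4 and 5, LITCHI022130.m1. It matches an ADF of lily, and had 3.61, 4.95 and 5.08 FPKM in F4, against 27.3, 29.3 and 37.6 FPKM in M4, and 11.1, 4.06 and 12.1 FPKM in F5, against 46.2, 34.8 and 49.9 FPKM in M5. The male libraries were above all female ones at both stages, with log2 fold changes of -3.004 ± 0.48 and -2.74 ± 0.47 (edgeR FDR 2.32e-05 and 3.02e-05). It held 2.86% of the summed ADF FPKM in F5 and 12.4% in M5. The most abundant ADFs, LITCHI027771.m1 (a match to petunia ADF1) and LITCHI002012.m1 (ADF9), were not called in any comparison of the sexes. LITCHI002012.m1 was uneven among F2 libraries, at 30.4, 84.4 and 188 FPKM.

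Among the 10 actins, 2 were lower and 1 was higher in female flowers at stage 5. LITCHI027737.m1 had 17.03, 13.2 and 17.5 FPKM in F5, against 37.4, 27.9 and 44.4 FPKM in M5, without overlap (log2 fold change -1.67 ± 0.14, edgeR FDR 7.04e-10). An entry annotated as a fragment of Actin-85C, LITCHI017503.m1, went the other way, at 20.4 ± 1.39 FPKM in F5 and 6.47 ± 0.592 FPKM in M5 (log2 fold change 1.18 ± 0.09, edgeR FDR 1.13e-10). LITCHI024898.m1 showed the largest fold, with 3.38, 2.51 and 4.34 FPKM in F5, against 37.6, 29.7 and 45.96 FPKM in M5 (log2 fold change -3.95 ± 0.86, edgeR FDR 0.000405). It is 1 of 2 entries of its locus, its M4 libraries spread over 39.7, 22.8 and 3.69 FPKM, and with the entries summed the locus gave -0.94 at stage 5 and -0.76 at stage 4, both no longer called. Its own stage 4 call (-3.06, FDR 0.0042) was lost without any of the 3 F4 libraries or without M4 replicate 1 (-3.37 to -2.37).

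Actin-related proteins serve the Arp2/3 nucleation complex and, in the nucleus, chromatin remodelling, and 17 of the 19 tested were not called at stage 5. The most abundant, the ARP4 match LITCHI023212.m1, averaged 48.4 ± 3.11 FPKM in F5 and 25.3 ± 0.874 FPKM in M5 (log2 fold change 0.46 ± 0.07, under the threshold). The ARP9 match LITCHI015363.m1 gave 0.01 ± 0.05. Lower in female flowers was the ARP8 match LITCHI013503.m1, at 7.09 ± 0.791 FPKM in F5 and 10.3 ± 0.605 FPKM in M5 (log2 fold change -1.01 ± 0.14, edgeR FDR 2.21e-06), and it was also called at stage 4 (-1.19). Both calls were lost with library-size scaling (-0.54 at stage 5 and -0.96 at stage 4), and the stage 5 call also without F5 replicate 2 or 3 or M5 replicate 2 (-0.96 to -0.95).

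Myosins had 1 higher and 8 lower calls in female flowers at stage 5, and the 2 most abundant motors were not among them. Myosin-11 (LITCHI003600.m1, a match to Arabidopsis XI-E, a pollen myosin there) had 1.51, 1.05 and 1.80 FPKM in F5, against 8.77, 5.91 and 10.9 FPKM in M5. The groups did not overlap, and the log2 fold change was -3.02 ± 0.40 at stage 4 and -3.03 ± 0.40 at stage 5 (edgeR FDR 2.12e-06 and 7.97e-07). It was also the member called as lower in female buds at stage 1, at 0.220, 0.306 and 0.233 FPKM in F1, against 0.598, 0.762 and 1.53 FPKM in M1 (log2 fold change -1.99 ± 0.40, FDR 0.00355). That stage 1 call was lost without any 1 of the 3 F1 libraries or without M1 replicate 3 (-2.11 to -1.46), and in a fit of the groups compared alone (FDR 0.0171). Conversely LITCHI029573.m1, a match to XI-2, had 9.25, 7.59 and 13.03 FPKM in F5, against 0.911, 0.967 and 1.21 FPKM in M5 (log2 fold change 2.79 ± 0.21, edgeR FDR 1.05e-10), although no motor domain was listed for it.

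The most abundant motors were not called. The XI-K match LITCHI030182.m1 averaged 19.6 ± 1.71 FPKM in F5 and 14.1 ± 0.858 FPKM in M5 (log2 fold change 0.01 ± 0.09), and the VIII-1 match LITCHI006076.m2 19.8 ± 3.68 FPKM in F5 and 15.1 ± 0.980 FPKM in M5 (-0.09 ± 0.22, and 0.39 with library-size scaling). Myosin-binding proteins, which anchor the motors to vesicles, made up 4 of the 8 lower calls. The MYOB1 match LITCHI003608.m3 averaged 9.83 ± 1.99 FPKM in F5 and 22.5 ± 4.44 FPKM in M5 (log2 fold change -1.67 ± 0.28, edgeR FDR 2.28e-05). The MYOB7 entry LITCHI019026.m6 gave -2.22 ± 0.53 (FDR 0.00101), and -0.99, no longer called, when the entries of its locus were summed.

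Most pollen and anther markers moved with the male-higher members. Of 11 tested genes annotated as specific to pollen or anther, 9 were called as lower in female flowers both at stage 4 and at stage 5. None was called as higher. The background was 7.4% lower and 9.55% higher at stage 4, and 11.6% lower and 17.6% higher at stage 5. Their summed level ranged between 306 and 391 FPKM over F5 libraries, against 422 to 570 FPKM over M5 libraries, and between 384 and 398 FPKM over F4 libraries, against 513 to 603 FPKM over M4 libraries. Most of the female sum came from 1 gene, the C13 match LITCHI010442.m1, with 238 FPKM in F5 and 123 FPKM in M5. The anther protein LAT52 match LITCHI013059.m1 averaged 62.7 FPKM in F5 and 179 FPKM in M5, and 1 of the 12 listed markers, LITCHI008127.m1, was at 0 in every group. The ovule gene AGL11 (LITCHI011705.m1) averaged 13.00 FPKM in F5 and 0.389 FPKM in M5, and AGAMOUS (LITCHI028933.m1) 71.2 and 217 FPKM. The list of ovule and carpel markers went the other way from AGL11. Its summed level ranged between 159 and 282 FPKM over F5 libraries, against 416 to 458 FPKM over M5 libraries, nearly all of it from the CRABS CLAW match LITCHI005346.m1 (203 FPKM in F5 and 430.3 FPKM in M5). Its other 2 entries, of YABBY 4, were under 1 FPKM in both groups, and 1 of them, LITCHI004920.m2, was called as higher in female flowers. The part of these tissues in the differences of cytoskeletal genes was not tested.

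Along the stages, the step into stage 4 had the most calls among the 144 tested members in both sexes, as it had among all tested genes. In male flowers, 26 members were called at stage 4 against 3, 12 higher and 14 lower (background 20.4%, 7.73% higher and 12.6% lower), and 9 at stage 5 against 4, 3 higher and 6 lower (background 10.6%, 3.63% and 7.0%). The earlier male steps had 5 calls at stage 2 against 1, 1 higher and 4 lower (background 2.66%, 1.69% and 0.966%), and 7 at stage 3 against 2, 6 higher and 1 lower (background 6.23%, 3.76% and 2.47%). In female flowers, 4 members were called at stage 2 against 1, 1 higher and 3 lower (background 3.0%, 2.33% and 0.675%), and 4 at stage 3 against 2, 2 each way (background 2.51%, 1.53% and 0.977%). Female stage 4 against 3 had 10 calls, 7 higher and 3 lower (background 12.1%, 4.56% and 7.51%). Stage 5 against 4 in female flowers had no edgeR call (background 1.22%, 0.75% and 0.467%), with 23 members at an unadjusted p under 0.05 and 2 calls by DESeq2. Over the whole span, stage 5 against stage 1 gave 16 calls in female flowers, 11 higher and 5 lower (background 14.8%, 7.44% and 7.31%), and 50 in male flowers, 28 higher and 22 lower (background 36.8%, 15.3% and 21.5%). With library-size scaling the male split turned to 18 higher and 31 lower, while the median of all genes shifted to -0.42, against -0.08 with TMM factors.

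Some male-higher members dipped at stage 2 in both sexes before their late rise. The ADF LITCHI022130.m1 averaged 1.22, 0.0653, 0.224, 4.55 and 9.10 FPKM in F1 to F5, and 3.46, 0.164, 0.781, 31.4 and 43.6 FPKM in M1 to M5. Stage 2 against 1 gave log2 fold changes of -4.09 ± 0.66 in female and -4.32 ± 0.58 in male flowers (edgeR FDR 0.000174 and 1.72e-05), and stage 4 against 3 gave 4.26 ± 0.56 and 5.42 ± 0.55 (FDR 3.09e-06 and 2.86e-08). Both steps thus passed the test in both sexes, although in a fit of F1 and F2 alone the female step at stage 2 did not (FDR 0.0892). The beta tubulin LITCHI023083.m1 fell by 2.81 in female and by 3.78 in male flowers on the log2 scale at stage 2 against 1, and rose by 4.41 and 4.35 at stage 4 against 3. Its female step at stage 2 was lost without F1 replicate 2 (-2.74) and in a fit of F1 and F2 alone (FDR 0.219). The myosin LITCHI003600.m1 rose at stage 4 against 3 by 3.70 in female and 4.92 in male flowers. A second ADF, LITCHI025694.m1, was at a low level throughout, with 0.0173 FPKM in F2 and 0.0356 FPKM in M2 and 2.39 FPKM in F4 and 4.41 FPKM in M4. The LAT52 match LITCHI013059.m1 also averaged 6.13 FPKM in F1 and 0.0930 FPKM in F2, and 14.7 FPKM in M1 and 0.226 FPKM in M2, and how far anther content accounts for the dip was not tested.

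A few genes rose in both sexes. The neighbouring actin entries LITCHI019121.m1 and LITCHI019125.m1 rose at stage 4 against 3 by 1.51 and 1.70 in female and 1.31 and 1.36 in male flowers (log2, edgeR), to 8.04 and 10.3 FPKM in F4 and 6.32 and 6.996 FPKM in M4. The tubulin-folding cofactor A entry LITCHI003181.m1 rose by 1.37 in female and 1.68 in male flowers at stage 5 against 1, the female step not being called in a fit of F1 and F5 alone (FDR 0.0173). The male-higher profilins rose in both sexes as well, LITCHI030455.m1 by 1.23 in female and 2.67 in male flowers and LITCHI017710.m1 by 1.27 and 2.67 at stage 5 against 1.

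Whether the course differed between the sexes was tested directly, as the female change minus the male change at stage 5 against stage 1. This difference was called for 36 members, 21 positive and 15 negative (background 22.6%, 14.7% positive and 7.84% negative), and for 37 (30 positive, 7 negative) with library-size scaling, 28 of them under both. Among the positive calls were 8 formins, 5 beta tubulins, 2 villins and 1 gamma tubulin, with LITCHI015682.m1 at 4.13 ± 0.30, LITCHI019562.m2 at 3.18 ± 0.38 and LITCHI018285.m1 at 1.67 ± 0.18 on the log2 scale (edgeR FDR 2.99e-10, 3.63e-07 and 1.14e-07). The gamma tubulin, LITCHI025825.m2, lost its call (1.15) in 18 of the 30 fits without a single library (0.95 to 1.13). The beta tubulin LITCHI008599.m4 (1.44) also lost its call in 18 (1.18 to 1.46). Among the formins, LITCHI007046.m1 (1.03) lost its call in 29 of these fits (0.91 to 1.06) and with DESeq2 (0.98). The formins LITCHI016893.m1 and LITCHI004271.m1 lost theirs in 8 and 7. The profilin LITCHI017710.m1, a negative call (-1.40), lost it in 5 and with library-size scaling (-0.99). Among the negative calls were 7 myosin entries, 3 actins and 2 profilins, with LITCHI030455.m1 at -1.44 ± 0.18 and LITCHI027737.m1 at -1.78 ± 0.20 (FDR 8.26e-07 and 1.31e-07). The ADF LITCHI022130.m1 and the beta tubulin LITCHI023083.m1, which were higher in male flowers already at stage 1 by point estimate, gave -1.18 ± 0.65 (FDR 0.152) and -0.35 ± 0.66 (FDR 0.713), so a sex difference in their course was not detected. Across all 10 groups, 103 of the 144 tested members differed (FDR under 0.01), 71.5% beside 73.5% of all genes. With library-size scaling 108 differed, beside 75.0% of all genes.

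Other cytoskeletal genes, taken from lists defined by annotation and without the members, were counted the same way at stage 5 in female against male flowers. Kinesins, the microtubule motors, had 45 higher and 5 lower calls among 85 tested, and microtubule-associated proteins 27 higher and 2 lower among 85 (background 17.6% higher and 11.6% lower). Regulators of actin had 7 higher and 6 lower among 36, and the ROP GTPase module, which steers actin at growing cell tips, 19 higher and 4 lower among 45. Their median log2 fold changes were 1.37, 0.55, -0.16 and 0.66, beside 0.03 for all genes. In male flowers at stage 5 against 1, kinesins had 5 higher and 51 lower calls and microtubule-associated proteins 5 higher and 31 lower (background 15.3% higher and 21.5% lower).

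Actins and tubulins are commonly used as reference genes in quantitative PCR, so their steadiness over the 10 groups was described under both scalings. The 20 actin, alpha tubulin and beta tubulin entries with a mean of at least 10 FPKM were compared by the SD of their group mean log2 CPM (counts scaled to a common library total). The median SD was 0.368 under TMM factors and 0.400 under library-size scaling, beside 0.365 and 0.366 for all 9073 tested genes of at least 10 FPKM. For 43 genes of other families commonly used as references (ubiquitin-conjugating enzymes, polyubiquitin, elongation factor 1-alpha, GAPDH and PP2A) it was 0.350 and 0.321. The levels of 19 of the 20 entries differed among the groups under TMM factors and of all 20 under library-size scaling (edgeR test over all groups, FDR under 0.01). The same test called 73.5% and 75.0% of all tested genes. The highest and lowest group lay within a factor of 2 for 5 of them under TMM factors and for 6 under library-size scaling. M5 was the lowest group for 10 under TMM factors and 11 under library-size scaling.

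LcActin had an SD of 0.333 with TMM factors, with a 1.99-fold range between the highest and the lowest group mean, and of 0.277 with library-size scaling, with a 1.86-fold range. These SDs lay at percentiles 45.4 and 35.1 of the genes of at least 10 FPKM, where a low percentile means steady. Its libraries had 211, 195 and 208 FPKM in F1, 332, 314 and 292 FPKM in F4 and 246, 287 and 281 FPKM in F5, and 181, 189 and 186 FPKM in M1, 334, 355 and 360.0 FPKM in M4 and 289, 255 and 279.7 FPKM in M5. In both sexes stage 4 was highest and stage 1 lowest of these, and the means of stages 2 and 3 lay between, at 222 and 237 FPKM in F2 and F3 and 217 and 245 FPKM in M2 and M3. Between the sexes LcActin gave -0.49 ± 0.07 at stage 5 with TMM factors (edgeR FDR 8.03e-07) and -0.02 ± 0.07 with library-size scaling (FDR 0.861), so whether it differed depended on the scaling. A ratio within a library avoids this choice. The PP2A match LITCHI023204.m1 was picked after its values were seen, as the gene with the best rank by geNorm's M. This M is the mean SD of a gene's log2 ratio to each other reference gene. Set against LITCHI023204.m1, LcActin FPKM gave ratios of 6.30, 6.71, 7.30, 8.85 and 8.36 in F1 to F5, and 5.85, 6.35, 7.17, 9.82 and 10.2 in M1 to M5. LITCHI023204.m1 itself averaged 35.6 FPKM in M4 and 26.9 FPKM in M5. Set against the actin LITCHI018420.m2, the candidate with the smallest SD, the ratios were 2.21, 2.41, 2.67, 2.78 and 2.59 in F1 to F5. In M1 to M5 they were 2.04, 2.12, 2.74, 4.35 and 3.55, highest in M4 and not in M5.

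By SD, the steadiest actin or tubulin was LITCHI018420.m2, a match to a cotton actin, with an SD of 0.0984 and a 1.23-fold range with TMM factors, at percentile 1.82, and an SD of 0.166 and a 1.45-fold range with library-size scaling. Its libraries had 90.01, 120.4 and 106 FPKM in F5, against 78.4, 77.1 and 76.6 FPKM in M5. The groups did not overlap on the FPKM scale, yet the log2 fold change was -0.03 ± 0.11 under TMM factors and 0.45 with library-size scaling. The test over all groups gave an FDR of 0.211 under TMM factors and 0.00292 under library-size scaling (edgeR). Next were the TUBB8 match LITCHI009347.m1 (SD 0.193 with TMM factors, 0.314 with library-size scaling) and the alpha tubulin LITCHI010746.m1 (0.208 and 0.335), whereas the TUBB5 match LITCHI028653.m1 was steadier with library-size scaling (0.278 and 0.192). In all, 8 of the 20 entries had the smaller SD with library-size scaling and 12 with TMM factors. By geNorm's M among the 20, which is free of scaling, LITCHI009347.m1 (0.601) and LITCHI010746.m1 (0.602) came before LITCHI018420.m2 (0.607). LcActin ranked 8 by this M (0.709), and 14 when the 43 genes of other families were included. With those genes included the order of the other 3 turned. LITCHI018420.m2 then ranked 8 (0.528), LITCHI009347.m1 21 (0.559) and LITCHI010746.m1 28 (0.581), so this order depends on the genes compared.

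The least steady were the actin LITCHI024898.m1 (SD 1.53 under TMM factors and 1.42 under library-size scaling) and the alpha tubulins LITCHI019562.m1 (1.36 and 1.47) and LITCHI019562.m2 (1.24 and 1.37). With the entries of a locus summed, LITCHI024898 had an SD of 0.523 and LITCHI019562 of 1.22 with TMM factors. Leaving out M5 lowered the SD of LITCHI019562.m2 to 0.802, of LITCHI025018.m1 to 0.540 and of LITCHI027737.m1 to 0.294. Of the candidates, 9 were called between the sexes at stage 5 under TMM factors and 11 under library-size scaling, and 5 at stage 4 under each. The background was 29.2% and 32.8% of all tested genes at stage 5, and 16.9% and 18.2% at stage 4. No candidate was called between the sexes at stages 1 to 3, or at any step before stage 4, under either scaling. The background was low there too, at most 1.32% between the sexes and 6.23% at a step. In other families, 3 genes were steady under both scalings, namely the PP2A match LITCHI023204.m1 (SD 0.0993 and 0.112) and the ubiquitin-conjugating enzymes LITCHI029887.m1 (0.183 and 0.0789) and LITCHI024863.m1 (0.103 and 0.154), all 3 singled out after their values were seen.

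**Figure D5:**
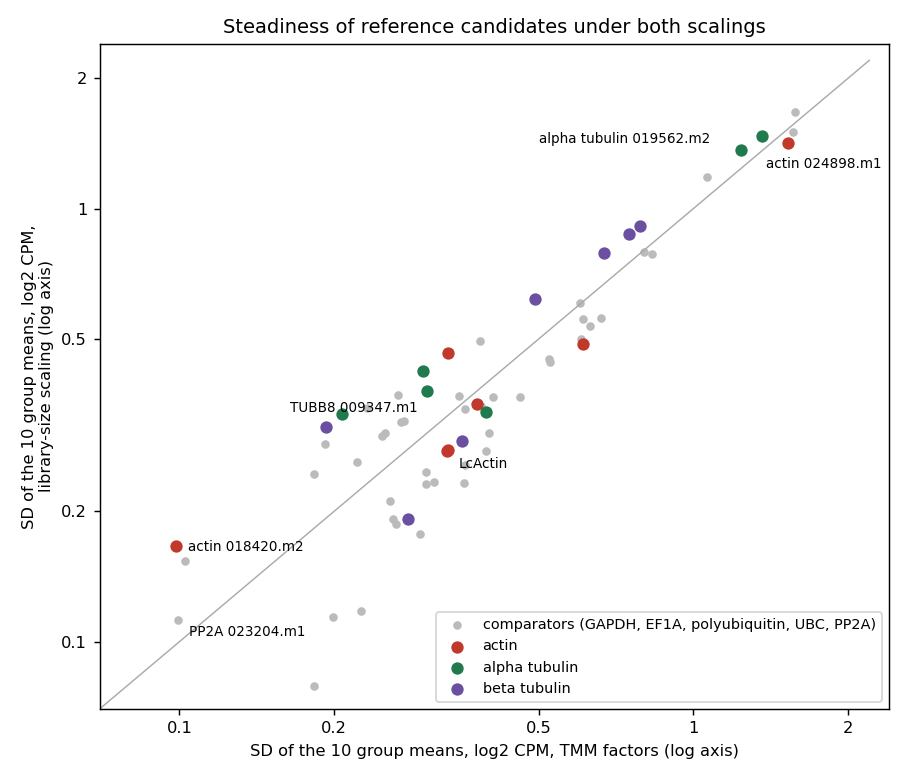
SD over the 10 group means of log2 CPM with TMM factors (x axis) against library-size scaling (y axis), both on log axes, for the 20 actin and tubulin candidates and the 43 genes of other reference families. LcActin lies mid-field at 0.333 and 0.277, and the cotton actin match LITCHI018420.m2 is the steadiest of the 20 at 0.0984 and 0.166.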

How the data were processed

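RNA-seq of 30 whole-flower libraries (10 groups of 3) was analysed. The deposited table, made by the authors, holds fragment counts and FPKM for 37234 genes. Submitters' notes list HISAT2 (2.0.4) and StringTie, and the study's methods name Cufflinks for FPKM; the genome build is not given in the sources used here. The table's columns for 25 pairwise comparisons by the authors (FDR, log2 fold change and direction) were not used.

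Counts were tested with edgeR (4.0.16, R 4.3.3): filterByExpr (9380 genes removed), TMM factors and quasi-likelihood tests over all 30 libraries, 1 mean per group. A call needed an FDR under 0.01 over 27854 genes and at least a 2-fold difference. The common biological coefficient of variation was 0.352. The test was run first on simulated counts. FPKM were averaged as deposited by the authors. No 2 libraries of a group agreed within sampling noise. The disagreement was uneven among groups. Its chi-square per degree of freedom was 23.64 for M2 replicates 1 and 3. It reached 168.5 for F2 replicates 1 and 3 and 107.05 for F5 replicates 1 and 3, while 1 fit shares the spread over all groups.

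Steadiness used the SD of the group means of log2 CPM and geNorm's M. Members and lists were chosen with earlier results of these data known. Named were LcActin, the 2 most abundant members of each class, the called members with the largest changes (5 in each direction for the late sex comparisons and the difference in course, 2 otherwise, at 1 FPKM or more in the higher group), and the 3 steadiest and 3 least steady candidates; any other member named was singled out after its values were seen. Alternatives were library-size scaling, DESeq2, no filter, only the groups compared, a replicate block, each library left out and the entries of a locus summed. No sequence is shown, since no reference sequences were used here.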

Additional observations from a re-analysis of the deposited data

Results flagged for a closer look

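The course over development differed between the sexes for 36 members, by the test of the female change minus the male change at stage 5 against stage 1 (edgeR, FDR under 0.01 and a 2-fold difference). As 22.6% of all tested genes were called in that test, the number itself is close to the background. The following members had the largest such differences, given on the log2 scale.

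Positive differences, where the level ended lower in male flowers, were 4.13 for the formin LITCHI015682.m1, 3.18 for the alpha tubulin LITCHI019562.m2, 2.54 for the myosin LITCHI029573.m1, 2.52 for the AIP1 match LITCHI005735.m1 and 2.37 for the beta tubulin LITCHI022131.m1. For the first 4 the female group means changed by less than the fold threshold at stage 5 against 1, while the male means fell by 4.54, 3.39, 3.07 and 3.15. LITCHI022131.m1 fell in both sexes, by 1.46 in female and 3.84 in male flowers, and the female call was lost without F1 replicate 1 or 3 or F5 replicate 2 (-1.40 to -1.36).

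Negative differences were -1.81 for fimbrin-5 (LITCHI021415.m1) and -1.99 for the XI-F myosin match LITCHI004305.m1, which rose in male flowers by 2.46 and 2.85. The actin LITCHI024898.m1 gave -5.01 and the myosin-binding protein LITCHI019026.m6 -2.76. For the actin the value was -0.74, and no longer called, with the entries of its locus summed. The call of LITCHI019026.m6 was lost without F5 replicate 3 (-2.68) or M1 replicate 3 (-2.43) and with library-size scaling (-2.34). The actin entry LITCHI018420.m1 gave -1.90 at a low level, 1.23 ± 0.562 FPKM in F1 and 0.328 ± 0.0369 FPKM in F5 beside 0.501 ± 0.122 FPKM in M1 and 0.377 ± 0.0815 FPKM in M5. That call was lost in 12 of 30 fits without a single library (-1.99 to -1.72) and gave -0.06 with the entries of its locus summed.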

How the results depend on the processing

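The counts of called members at stages 4 and 5, at male stage 4 against 3, over stage 5 against 1 and for the difference in course stayed within 1.5 times under all alternatives run. Where counts were small they moved more. DESeq2 called 4, 3 and 3 members between the sexes at stages 1, 2 and 3, 2 at female stage 5 against 4 and 9 at male stage 2 against 1. Library-size scaling called 2 at stage 3. Fitting only the groups compared called 0 at female stage 2 against 1 and 1 at female stage 3 against 2. With the entries of a locus summed, 15 loci were called at male stage 5 against 4. Without single libraries the counts ranged between 1 and 2 at stage 1, 0 and 2 at stage 2, 0 and 3 at stage 3, 2 and 5 at female stage 2 against 1, 2 and 7 at female stage 3 against 2, 0 and 2 at female stage 5 against 4, 4 and 8 at male stage 3 against 2, and 5 and 10 at male stage 5 against 4.

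At stage 5 the sign turned for members with a difference near 0. With library-size scaling it became 0.45 for LITCHI018420.m2, 0.39 for LITCHI002012.m1, 0.39 for LITCHI006076.m2, 0.08 for LITCHI023494.m1 and 0.05 for LITCHI001238.m1. LITCHI018420.m2 gave 0.05 in the fit of the groups compared. LITCHI015363.m1 and LITCHI030182.m1 each gave -0.00 without the filter, -0.02 with loci summed and -0.05 with DESeq2. The actin LITCHI018420.m1 gave 0.09 at female stage 5 against 1 with its locus summed. Counted as tests of named members and not as percentages, DESeq2 kept 98, no filter 99 and the replicate block 99 in direction and call. Only the groups compared kept 90, loci summed 88 and library-size scaling 86. Of the rest, library-size scaling reversed 5, weakened 7 and strengthened 4. Loci summed reversed 3 and weakened 11, and only the groups compared reversed 1 and weakened 11. DESeq2 reversed 2, weakened 1 and strengthened 1. No filter reversed 2 and weakened 1, and the replicate block weakened 3. Without single libraries the stage 5 value ranged between -0.15 and 0.03 for LITCHI018420.m2, -0.21 and 0.04 for LITCHI002012.m1, -0.18 and 0.03 for LITCHI006076.m2, -0.05 and 0.06 for LITCHI015363.m1, -0.12 and 0.08 for LITCHI030182.m1, -0.03 and 0.10 for LITCHI023107.m1, and -0.51 and 0.59 for LITCHI022113.m1. The cause of these changes was not tested.

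Replicate numbers did not pair the female and male libraries of a stage (correlation of same-numbered deviations between -0.094 and 0.101). Pairing by number across stages was not examined. With the number as a block, 44 members were called at stage 5, 24 at stage 4, 50 at male stage 5 against 1 and 33 for the difference in course. With 3 libraries a group and a coefficient of variation of 0.352, a member without a call may still differ, and members with few counts are the least certain.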

Other observations

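Several members not described above had courses of their own. The alpha-5 tubulin match LITCHI003355.m1 averaged 43.3, 56.4, 55.1, 37.99 and 33.6 FPKM in F1 to F5, and 29.4, 39.1, 49.6, 61.9 and 44.4 FPKM in M1 to M5. Its difference in course was -1.37 ± 0.13 on the log2 scale (edgeR FDR 2.16e-08), opposite in sign to that of the alpha tubulin LITCHI019562.m2, and it was not called between the sexes at any single stage. With library-size scaling the difference in course was -0.96, no longer called.

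The ARP8 match LITCHI013503.m1 fell by 1.61 in female and 1.26 in male flowers at stage 5 against 1 (log2, edgeR), to 7.09 ± 0.791 FPKM in F5 and 10.3 ± 0.605 FPKM in M5. An entry annotated as myosin-9, LITCHI017571.m1, averaged 8.02 ± 0.144 FPKM in F5 and 15.5 ± 0.853 FPKM in M5 (log2 fold change -1.42 ± 0.11, edgeR FDR 1.27e-10). With library-size scaling it gave -0.95, no longer called, and no motor domain was listed for it. The myosin-binding protein 3 match LITCHI025842.m1 averaged 1.89 ± 0.0618 FPKM in F5 and 4.74 ± 0.463 FPKM in M5 (log2 fold change -1.80 ± 0.15, edgeR FDR 7.2e-10). These members were chosen after their values were seen.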
